A study of Homo sapiens with 6 samples.

Results

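Small leucine-rich proteoglycans are secreted matrix proteins with a curved protein core of leucine-rich repeats, and most of them carry chondroitin, dermatan or keratan sulfate chains. They bind collagen fibrils and set their spacing and thickness, and several also bind growth factors or innate immune receptors. Fibroblasts are their main source in connective tissue, where decorin is best known for binding TGF-β and lumican for ordering collagen. The 9 genes followed here, DCN, LUM, BGN, FMOD, OGN, ASPN, PRELP, OMD and PODN, were picked by name from the family, and all 9 were found among the 25368 symbols of both expression tables. Of these, 5 averaged 1 FPKM or more (a level per exon length and per mapped fragments) over the 3 libraries of each table. They were DCN, BGN, LUM, FMOD and PODN in both tables. The filter was passed by 10311 genes in the JUN overexpression table and by 11780 genes in the JNKi table.

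All libraries came from MRC5, a human embryonic lung fibroblast line that the authors had immortalized with hTERT. In the JUN overexpression table, MRC5 cells were infected for 2 h with adenovirus carrying an empty vector (control), FLAG-tagged JUN WT or FLAG-tagged JUN AA, and were then kept for 3 days. In JUN AA the serines that JNK phosphorylates are changed to alanine, and the authors describe this mutant as inactive. In the JNKi table, the libraries are untreated MRC5, iCAFs, which are MRC5 cells held for 7 days in medium conditioned by the breast cancer line MDA-MB-231, and iCAFs given the JNK inhibitor at 1 µM for 48 h (iCAFs+JNKi). The protocol names a DMSO vehicle for iCAFs, but the label of the iCAFs library does not say whether it received it. Each condition has 1 library, so no difference below has a replicate check and no test was possible. The words higher and lower describe these 6 libraries only.

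JUN itself was at 25.5 FPKM with empty vector, 4543 with JUN WT and 291 with JUN AA, so the JUN form and the JUN mRNA level differ together between the overexpression libraries and cannot be told apart. In the JNKi table JUN was at 57.1 FPKM in untreated MRC5, 55.3 in iCAFs and 21.1 after JNKi. The summed FPKM ranged from 494603 to 613184 in the first table, with JUN AA highest, and from 359944 to 399532 in the second. All 7 fibroblast markers (VIM, COL1A1, COL1A2, COL3A1, PDGFRA, PDGFRB and THY1) were above 1 FPKM in every library. Most markers of other cells were low, with CDH1, ESRP1, CDH5, CD3E, ACAN and TNMD listed at 0 in all 6 libraries and KRT19 reaching 1.78 FPKM in MRC5. The leukocyte marker CD68, which fibroblasts can also express, was not low, at 31.1 to 85.7 FPKM. It was at 32.6 FPKM with empty vector, 85.7 with JUN WT and 31.1 with JUN AA, a log2(FPKM + 1) difference of 1.37 in JUN WT against control. The summed level of the 3 osteoblast markers stayed at or under 0.106 FPKM, that of the 4 chondrocyte markers at or under 0.119 FPKM and that of the 2 tendon markers found in the tables at or under 0.491 FPKM.

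The expressed members lie on 3 chromosomes of GRCh37 (hg19). DCN (ENSG00000011465, chr12:91534261-91576994, minus strand) and LUM (ENSG00000139329, chr12:91496406-91505271, minus strand) are neighbours with 28989 bp between them. KERA and EPYC, further genes of the same family, follow LUM on that chromosome and were under 0.1 FPKM in every library, KERA being listed at 0 throughout and EPYC reaching 0.0513 FPKM in JUN WT. BGN (ENSG00000182492) is at chrX:152760438-152775004 on the plus strand, FMOD (ENSG00000122176) at chr1:203309756-203320886 on the minus strand and PODN (ENSG00000174348) at chr1:53527724-53551173 on the plus strand. DCN, LUM and FMOD overlap no other annotated gene, and BGN lies over HAUS7 on the opposite strand without sharing exon bases. PODN shares 466 of its 4899 exon bases with a long noncoding RNA and 280 with the pseudogene HIGD1AP11, both on the opposite strand, and since the strand setting is not stated their reads cannot be told apart there.

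RefSeq promoter windows were found for 6 of the 9 members, and none was found for DCN, LUM or OMD. The windows of BGN and FMOD are shown because both genes were lower in both JUN overexpression libraries and higher with JNKi and neither window reaches into an annotated exon, as that of PODN does, and the AP-1 sites to which JUN dimers bind were searched in them. Each window holds the 250 bases before the RefSeq start, read on the gene's strand, and its place on GRCh37 was found by exact match. The FMOD window lies inside the longer GENCODE gene but in none of its exons. Capitals mark the GC box GGGCGG on either strand.

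BGN, chrX:152760188-152760437, plus strand: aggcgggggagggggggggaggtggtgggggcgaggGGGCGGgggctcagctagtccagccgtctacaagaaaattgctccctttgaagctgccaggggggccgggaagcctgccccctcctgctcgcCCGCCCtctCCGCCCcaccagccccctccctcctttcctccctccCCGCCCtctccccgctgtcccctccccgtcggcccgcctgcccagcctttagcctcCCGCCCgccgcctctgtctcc

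FMOD, chr1:203320251-203320500, minus strand: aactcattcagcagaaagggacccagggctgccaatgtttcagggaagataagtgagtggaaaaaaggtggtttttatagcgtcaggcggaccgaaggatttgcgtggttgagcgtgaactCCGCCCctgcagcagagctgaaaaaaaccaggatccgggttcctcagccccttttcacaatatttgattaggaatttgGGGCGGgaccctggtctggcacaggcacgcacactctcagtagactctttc

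The BGN window holds 5 GC box matches at a GC content of 74.0%, and the FMOD window holds 2 at 51.6%. The PODN window also holds 2, at 72.4% GC, but 161 of its bases lie in an annotated exon. The windows of PRELP, ASPN and OGN hold none. A GC box was present in 42.6% of 35116 windows of the same length, so its presence does not set these genes apart. Neither AP-1 heptamer, TGACTCA or its reverse complement TGAGTCA, was found in a window of these 6 members, and 4.20% of all windows hold one. The octamer TGACGTCA was likewise not matched, against 1.65% of all windows. These letters were searched only in these windows.

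DCN encodes decorin, which carries a chondroitin or dermatan sulfate chain and binds collagen and TGF-β. It had the highest FPKM of the 9 members in every library and ranked between 128th and 583rd of all 25368 symbols. In the JUN overexpression table it was at 200.4 FPKM with empty vector, 149.6 with JUN WT and 256.3 with JUN AA. In the JNKi table it was at 296.4 FPKM in untreated MRC5, 106.8 in iCAFs and 409.1 after JNKi. The tumour-cell medium thus went with a level 2.78 times lower, and JNKi with a level 3.83 times that of iCAFs and 1.38 times that of MRC5. With differences taken as log2(FPKM + 1), a scale that understates the change of low genes, the difference was -1.46 in iCAFs against MRC5, and only 64 of the 11780 genes had a lower value. DCN differed less with JUN, by -0.42 in JUN WT and 0.35 in JUN AA against control. The value in JUN AA became 0.045 with FPKM rescaled so that every library had an equal sum.

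LUM encodes lumican, a keratan sulfate proteoglycan that regulates collagen fibril assembly. It was at 94.5 FPKM with empty vector, 24.9 with JUN WT and 240.1 with JUN AA. JUN WT was the lowest and JUN AA the highest of these 3 libraries, with log2 differences of -1.88 and 1.34 against control. The direct log2 difference of JUN WT against JUN AA was -3.22, a 9.63-fold lower FPKM, and 1 of the 10311 genes had a lower value in that comparison. With rescaled FPKM it was -2.94, and the difference of JUN AA against control was 1.03. With conditioned medium and JNKi, LUM was at 14.6 FPKM in untreated MRC5, 12.1 in iCAFs and 52.4 after JNKi. It was 1.21 times lower in iCAFs than in MRC5, a log2 difference of -0.25, and was 4.31 times higher with JNKi than in iCAFs. Its neighbour DCN had the larger difference in iCAFs and the smaller differences in both JUN libraries.

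BGN encodes biglycan, the closest relative of decorin, which also signals through Toll-like receptors when released from the matrix. It was at 83.9 FPKM with empty vector, 31.1 with JUN WT and 33.0 with JUN AA. Both JUN libraries were below the control by a similar amount, with log2 differences of -1.40 and -1.32, and their direct difference was -0.083. That small value changed sign, to 0.21, with rescaled FPKM. In the JNKi table BGN was at 40.6 FPKM in untreated MRC5, 62.5 in iCAFs and 146.7 after JNKi. BGN was thus higher in iCAFs than in MRC5, by 0.61 on the log2 scale, where DCN was lower. With JNKi it was higher again, by 1.22, and 182 of the 11780 genes had a larger value.

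FMOD encodes fibromodulin, which guides collagen fibril growth and cross-linking. It was at 7.22 FPKM with empty vector, 0.836 with JUN WT and 0.758 with JUN AA. Both JUN libraries lie under 1 FPKM, and the log2 differences were -2.16 and -2.22 against control. These became -2.97 and -3.09 with a pseudocount of 0.1, so their size depends on that choice. In the other table FMOD was at 2.49 FPKM in untreated MRC5, 3.78 in iCAFs and 23.3 after JNKi. FMOD was 1.52 times higher in iCAFs than in MRC5, a log2 difference of 0.46, and the library with JNKi was 6.17 times higher than iCAFs and 9.37 times higher than MRC5.

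PODN encodes podocan, a member first described in the kidney and in vascular smooth muscle that has been linked to slower cell growth. It was at 10.9 FPKM with empty vector, 2.92 with JUN WT and 1.20 with JUN AA, with log2 differences of -1.61 and -2.44 against control. It was the only expressed member other than FMOD with a higher FPKM in JUN WT than in JUN AA, by 0.84 on the log2 scale, and this became 1.22 with either the smaller pseudocount or rescaled FPKM. PODN in the JNKi table was at 7.26 FPKM in untreated MRC5, 2.12 in iCAFs and 28.8 after JNKi. It was lower in iCAFs by -1.40 on the log2 scale and then 13.6 times higher with JNKi. That log2 difference of 3.25 was exceeded by 3 of the 11780 genes.

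The other members were at or near 0. OMD, which encodes osteomodulin of bone, was listed at 0 in all 6 libraries. OGN, which encodes mimecan, was listed at 0 in all but JUN WT, where it was at 0.0114 FPKM. ASPN, which encodes asporin, a relative of decorin without its sugar chain, was at 0.112 FPKM with empty vector, 0.0139 with JUN WT and 0.104 in untreated MRC5 and was listed at 0 in the other libraries. PRELP, which encodes prolargin of cartilage and basement membranes, ranged from a listed 0 in JUN AA to 0.144 FPKM in MRC5. No difference is given for these genes, since the number of reads behind such values is unknown. OGN, OMD and ASPN lie side by side on chromosome 9 (chr9:95145550-95244788) inside CENPP, a gene on the opposite strand with which they share no exon bases and which was between 0.256 and 1.01 FPKM.

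**Figure D1:**
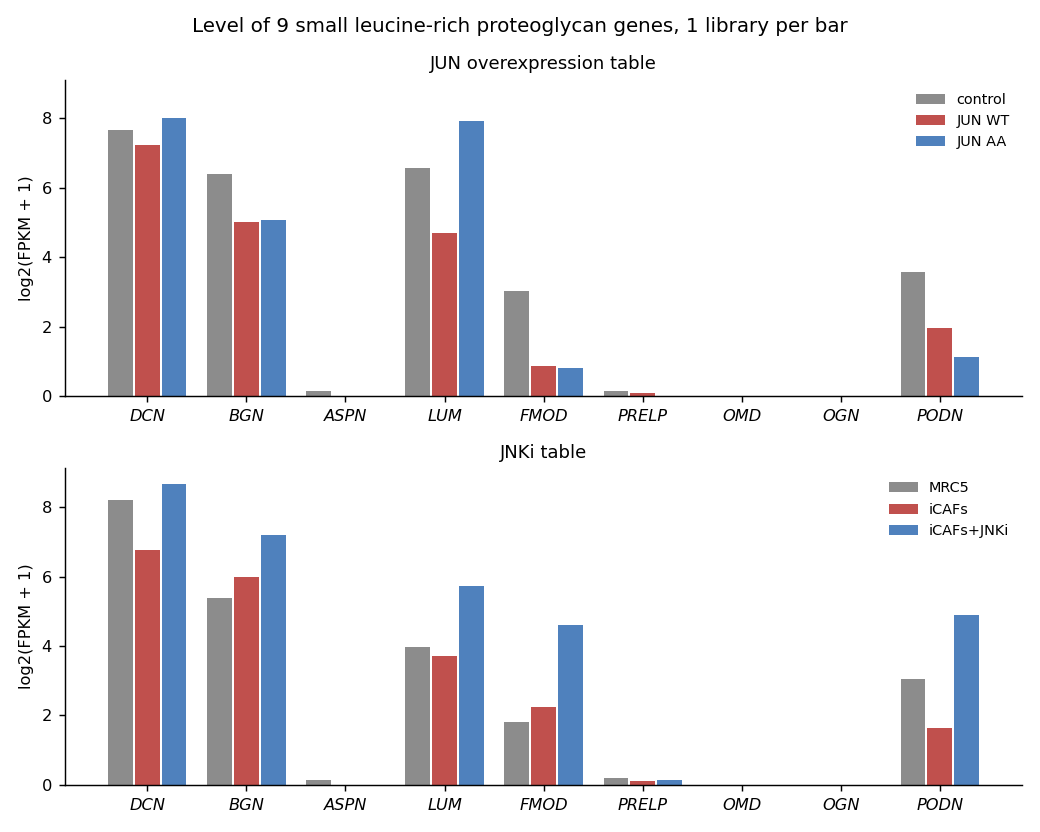
Levels of the 9 members as log2(FPKM + 1), with 1 bar per library and the JUN overexpression table above the JNKi table, which are not to be compared with each other. DCN has the tallest bar of the members in every library, LUM is lowest in JUN WT and highest in JUN AA within its table, and all 5 expressed members are highest in iCAFs+JNKi within their table.

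Counted together, JUN WT held 4 of the 5 expressed members at a level 2-fold or more below the control, against 3.39% of all measured genes, and 0 at 2-fold or more above it, against 6.92% of all genes. A 2-fold difference here is a log2(FPKM + 1) difference of 1. The members' median was -1.61 and that of all genes 0.15, and the member that stayed within 2-fold was DCN. In JUN AA against control, 3 members (BGN, FMOD and PODN) were at least 2-fold lower, against 3.77% of all genes, and LUM alone was at least 2-fold higher, against 5.29%. The members' median was -1.32 and that of all genes -0.015. BGN, FMOD and PODN were therefore lower in both overexpression libraries, which share the control library, while LUM differed in opposite directions. FMOD passed the filter in the JUN overexpression table only through the control, at 7.22 FPKM, and was under 1 FPKM in both JUN libraries. Its fall followed from that selection, so it adds no support to the counts of 4 and 3 members.

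In JUN WT against JUN AA, 1 member, LUM, was at least 2-fold lower, against 5.61% of all genes, and 0 were higher, against 6.65%. The members' median was -0.083 and that of all genes 0.18. In iCAFs against MRC5, DCN and PODN were at least 2-fold lower, against 1.71% of all genes, and 0 were higher, against 1.94%. The members' median was -0.25 and that of all genes -0.06, and the members were spread from -1.46 to 0.61. In iCAFs+JNKi against iCAFs, all 5 expressed members were at least 2-fold higher, against 2.25% of all genes, and 0 were lower, against 1.97%. The members' median was 2.02, between 1.22 for BGN and 3.25 for PODN, while the median gene was at -0.10. These 2 comparisons share the iCAFs library, so a high or low value in that library would enter both with opposite sign. Against MRC5, which was not part of that comparison, iCAFs+JNKi was higher by 0.46 for DCN, 1.77 for LUM, 1.83 for BGN, 2.80 for FMOD and 1.85 for PODN on the log2 scale. The value for DCN was exceeded by 9.36% of all genes, and those of the others by 0.374% to 1.21%. The same iCAFs+JNKi library is used again here, so a high value in it would enter both comparisons.

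The split of all genes past 2-fold depended on the setting. Rescaling to a common sum multiplied FPKM by 1.63 to 2.78 before 1 was added, so it changed the weight of the pseudocount as well as the scaling. In JUN AA against control 545 genes were higher and 389 lower, and with rescaled FPKM 338 and 957, with the median gene at -0.29. In JUN WT against JUN AA 686 were higher and 578 lower, but 1770 and 364 with rescaled FPKM, with the median gene at 0.47, and 411 and 822 with centring on the median gene. In JUN WT against control the counts of 714 and 350 became 929 and 450 with rescaled FPKM and 436 and 522 with centring. In iCAFs+JNKi against iCAFs those of 265 and 232 became 411 and 244 with rescaled FPKM and 323 and 182 with centring. The members kept their counts past 2-fold in all of these except in JUN WT against JUN AA with rescaled FPKM, where PODN passed it.

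**Figure D2:**
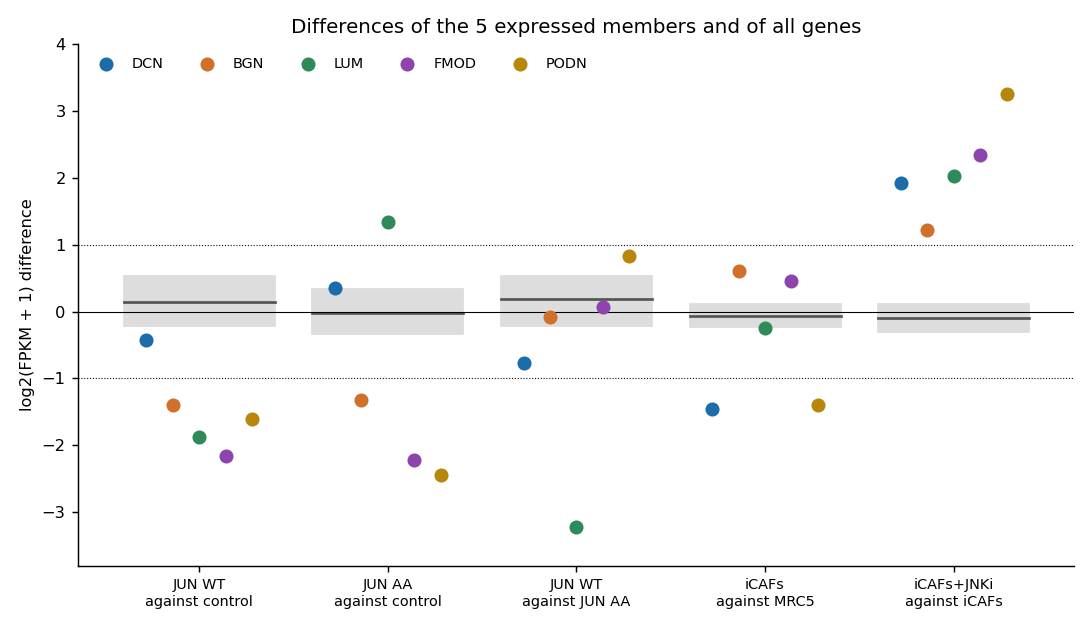
Differences of log2(FPKM + 1) for the 5 expressed members (points) in 5 comparisons, with a grey box from the lower to the upper quartile of all measured genes and a line at their median. The dotted lines mark 2-fold, and all 5 members lie above the upper one in iCAFs+JNKi against iCAFs, from 1.22 to 3.25.

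The fibroblast markers also differed between these libraries. Of the 7 markers, 3 are also among the fibril collagens described further on. JUN WT and JUN AA each had 3 markers at least 2-fold below the control, against 3.39% and 3.77% of all genes. With JNKi 4 were at least 2-fold higher than in iCAFs, against 2.25% of all genes. Their summed FPKM was 5959 with empty vector, 5351 with JUN WT and 4135 with JUN AA. It was 5294 in untreated MRC5, 3889 in iCAFs and 5744 after JNKi. VIM, the intermediate filament gene of mesenchymal cells, was at 1480 FPKM with empty vector, 2927 with JUN WT and 1591 with JUN AA, and at 2892 FPKM in untreated MRC5, 1655 in iCAFs and 1209 after JNKi. It was thus higher in JUN WT and lower after JNKi, against most of the markers, and took up most of the lower sum in iCAFs. The part of this in the members' differences was not tested, and in bulk RNA fewer cells making a transcript and less of it per cell cannot be told apart.

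The make-up of the family within a library does not depend on how the library was scaled. DCN made up 50.5% of the summed FPKM of the 9 members with empty vector, 71.4% with JUN WT and 48.2% with JUN AA. LUM made up 23.8%, 11.9% and 45.2% in the same order, and BGN 21.1%, 14.9% and 6.22%. Decorin thus took its largest share of this table with JUN WT, and with JUN AA lumican came close to it, at 0.937 times the FPKM of DCN against 0.472 times in the control and 0.167 times in JUN WT.

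In the JNKi table DCN made up 82.0% in untreated MRC5, 57.0% in iCAFs and 62.0% after JNKi. BGN made up 11.2%, 33.4% and 22.2%. The ratio of BGN to DCN was 0.137 in untreated MRC5, 0.586 in iCAFs and 0.359 after JNKi, so it did not return to the MRC5 value with JNKi. FMOD and PODN together stayed small, and their shares were largest in iCAFs+JNKi, at 3.53% and 4.36%. The total also differed. The 9 members held 0.0803% of the summed FPKM of all genes with empty vector, 0.042% with JUN WT and 0.0867% with JUN AA. They held 0.0905% in untreated MRC5, 0.0477% in iCAFs and 0.183% after JNKi.

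**Figure D3:**
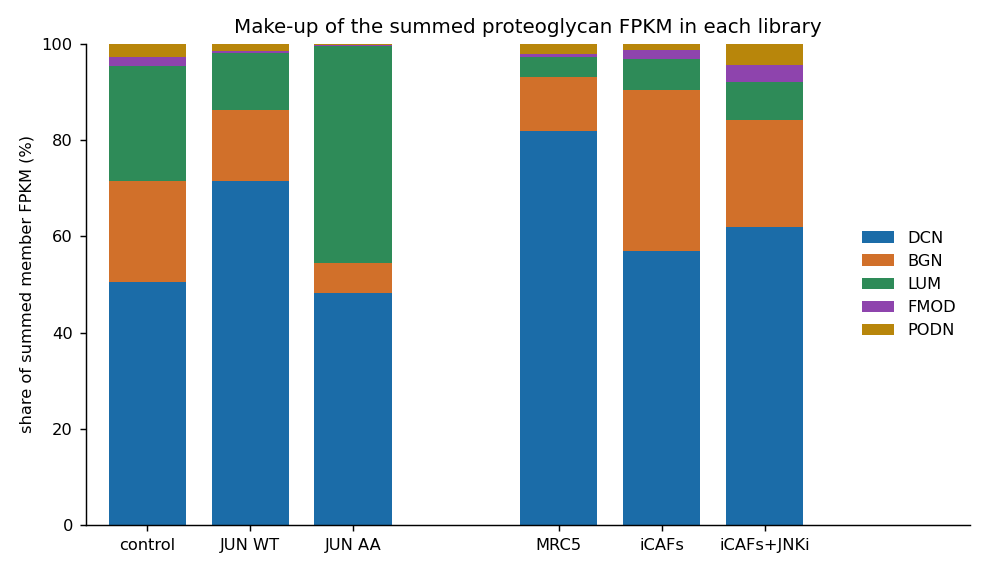
Share of each of the 5 expressed members in the summed FPKM of all 9 members, in percent, with 1 bar per library. DCN is the largest part everywhere, from 48.2% in JUN AA to 82.0% in MRC5, LUM reaches 45.2% in JUN AA and BGN 33.4% in iCAFs.

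The proteins the family binds were followed with a list of 15 fibril collagens and partners, 13 of which passed the filter beside the JUN libraries and all 15 beside the iCAFs. In JUN WT against control all 13 were lower, where 39.1% of all genes were, with a median of -0.80. Of the 13, 3 were at least 2-fold lower, against 3.39% of all genes. COL5A3 and COL5A1, chains of the collagen that starts fibrils, were lowest, COL5A1 going from 115.2 to 32.4 FPKM and COL5A3 from 24.1 to 5.84 FPKM. In JUN AA all 13 were lower, where 51.4% of all genes were, with a median of -1.15. Of the 13, 8 were at least 2-fold lower, against 3.77% of all genes. COL6A1, a chain of beaded-filament collagen, was at 145.9 FPKM against 450.8 FPKM, and PCOLCE, which enhances procollagen processing, at 82.6 FPKM against 223.5 FPKM.

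In iCAFs against MRC5 these genes were split, with 7 higher and 8 lower and a median of -0.088, where 40.6% of all genes were higher. ELN, which encodes elastin, was the 1 gene past 2-fold, at 0.118 FPKM in MRC5 and 2.33 FPKM in iCAFs. With JNKi 14 of 15 were higher than in iCAFs, where 37.4% of all genes were, with a median of 1.17. Of the 15, 10 were at least 2-fold higher, against 2.25% of all genes. COL14A1 is in both counts but passed the filter only through iCAFs+JNKi, at 5.59 FPKM against 0.110 FPKM in iCAFs. Its rise thus followed from the filter. ELN was at 27.6 FPKM there, and COL3A1, a chain of the fibrils that decorin and lumican coat, went from 46.4 to 296.4 FPKM. The collagen partners and the proteoglycans thus shared a direction with JNKi and in JUN WT. With JUN AA, LUM and DCN were higher than the control, by 1.34 and 0.35, where all 13 partners were lower.

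The enzymes that build the sugar chains were more mixed. Of 23 genes for the linker and the chondroitin and dermatan sulfate chains, 17 were measured beside the JUN libraries and 20 beside the iCAFs. In JUN WT 10 were higher and 7 lower, close to the 60.9% of all genes that were higher, with a median of 0.30, or 0.15 with centring. Of the 17, 2 were at least 2-fold higher, against 6.92% of all genes, and 1 at least 2-fold lower, against 3.39%. XYLT1, which starts the chain on the core protein, went from 0.995 to 3.06 FPKM, FAM20B, the xylose kinase of the linker, from 2.14 to 5.38 FPKM and CHST3, a chondroitin sulfotransferase, from 11.3 to 4.99 FPKM. The log2 differences of XYLT1 and FAM20B were 1.025 and 1.022, and with centring 0 of the 17 were at least 2-fold higher. With JUN AA the split was 9 higher and 8 lower, with a median of 0.071 that became -0.20 with rescaled FPKM, and CHST3, at 4.90 FPKM, was the 1 gene past 2-fold.

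In iCAFs 18 of the 20 chain enzymes were higher than in MRC5, with a median of 0.28, where 40.6% of all genes were higher. Of the 20, 4 were at least 2-fold higher, against 1.94% of all genes. Of the expressed members known to carry such chains, DCN was lower in iCAFs and BGN higher. CSGALNACT1, which starts the chondroitin polymer, went from 3.11 to 13.9 FPKM and CHST11 from 1.48 to 5.10 FPKM. DSEL, a relative of the epimerase that makes dermatan sulfate, went from 35.3 to 10.2 FPKM, and PXYLP1, which acts on the xylose of the linker, was the other lower gene, at 2.35 against 2.53 FPKM. With JNKi 10 were higher and 10 lower than in iCAFs and 0 passed 2-fold, with a median of -0.028 that became 0.097 with rescaled FPKM and 0.071 with centring on the median gene.

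Of 13 genes for keratan sulfate, the chain of lumican and fibromodulin, 8 passed the filter in each table. B3GNT7, CHST1, CHST4, CHST5 and CHST6 did not and were at or under 0.387 FPKM in every library, so the counts leave them out. The counts therefore do not show how much keratan sulfate was made, which was not measured. With JUN WT 5 lay above and 3 below the control, again close to the share of all genes, with a median of 0.34, or 0.19 and 4 on each side with centring. With JUN AA 2 lay above and 6 below it, where 51.4% of all genes were lower, with a median of -0.31. CHST2, a sulfotransferase, was the 1 gene past 2-fold in JUN AA, at 1.80 FPKM against 5.40 FPKM. B4GALT1 and B3GNT2, which extend the chain, were at 5.88 and 1.74 FPKM with empty vector, 11.3 and 4.24 with JUN WT and 3.50 and 1.33 with JUN AA. Neither passed 2-fold against the control. In JUN WT against JUN AA these 2 of the 8 were at least 2-fold higher, against 6.65% of all genes. That count was 3 with rescaled FPKM and 1 with centring. LUM thus had its highest level in the library in which most of the enzymes that passed the filter were below the control. In iCAFs all 8 were higher than in MRC5, where 40.6% of all genes were, with a median of 0.61. With JNKi 7 of 8 were lower than in iCAFs, where 62.6% of all genes were lower, with a median of -0.21 and 0 past 2-fold. With rescaled FPKM or centring 5 of 8 were lower.

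**Figure D4:**
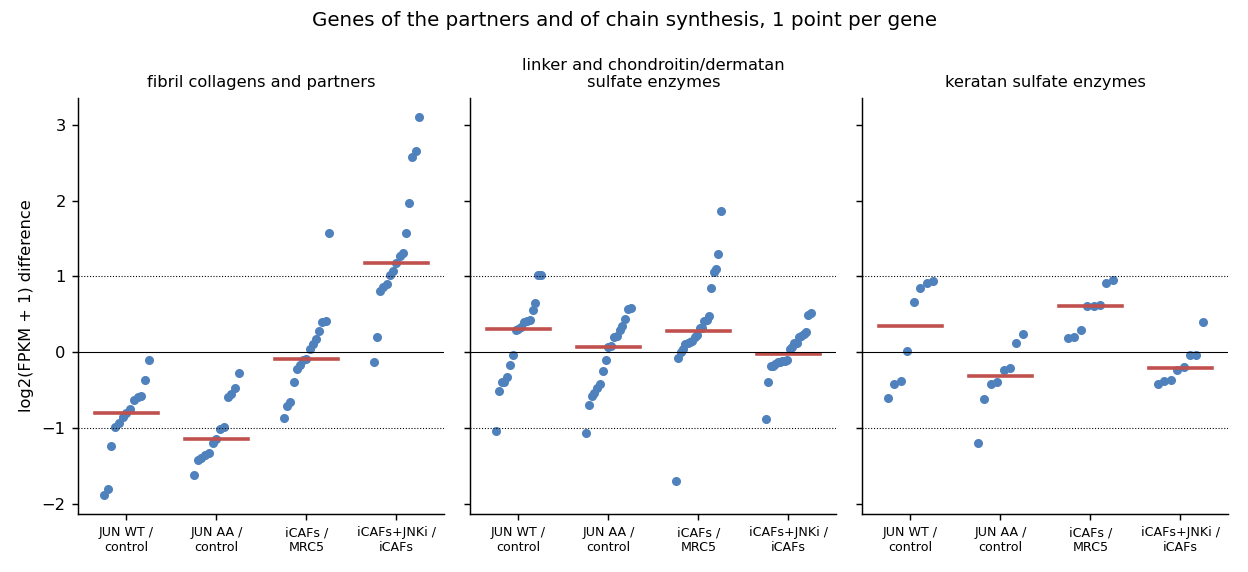
Differences of log2(FPKM + 1) for the fibril collagens and partners, the linker and chondroitin or dermatan sulfate enzymes and the keratan sulfate enzymes, with 1 point per gene that passed the filter and a red line at the list's median. The collagen medians are -0.80, -1.15, -0.088 and 1.17 from left to right, and the enzyme medians lie between -0.31 and 0.61.

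Among 15 genes for ligands and receptors that members of the family can bind, 9 passed the filter in each table. With JUN WT 7 of 9 lay below the control, where 39.1% of all genes did, with a median of -0.69. With JUN AA 7 of 9 also lay below it, where 51.4% of all genes did, with a median of -1.09. CTGF, a matricellular growth factor that binds decorin, was at 93.3 FPKM with empty vector, 34.8 with JUN WT and 34.3 with JUN AA. BMP4, a ligand that biglycan can modulate, went from 12.6 to 3.74 FPKM with JUN WT, and BMP2 from 9.40 to 2.43 FPKM with JUN AA. In iCAFs against MRC5 6 of 9 were higher, where 40.6% of all genes were, with a median of 0.50. CTGF went from 116.2 to 297.7 FPKM there and BMP4 from 9.07 to 3.57 FPKM. With JNKi 7 of 9 were higher than in iCAFs, where 37.4% of all genes were, with a median of 0.58. TGFB2, a TGF-β ligand, was at 2.17 FPKM in untreated MRC5, 5.52 in iCAFs and 13.0 after JNKi, and BMP4 was at 14.8 FPKM with JNKi. The receptors TLR2 and TLR4, which bind biglycan, were at or under 0.062 FPKM in all 6 libraries.

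Of 9 further family genes, KERA, EPYC, OPTC, CHAD, CHADL, NYX, ECM2, PODNL1 and TSKU, 2 were measured beside the JUN libraries and 3 beside the iCAFs, and 0 passed 2-fold in any comparison. This depended on the setting, since TSKU was past 2-fold higher in iCAFs than in MRC5 with rescaled FPKM and past 2-fold below the control in JUN WT with centring. TSKU, which encodes tsukushi, a regulator of secreted growth factors, was the highest of them, at 14.6 FPKM with empty vector, 7.48 with JUN WT and 11.6 with JUN AA. It was at 4.63 FPKM in untreated MRC5, 9.56 in iCAFs and 10.1 after JNKi. PODNL1, the relative of PODN, was between 1.63 and 2.09 FPKM in the first table. In the JNKi table it was at 0.867 FPKM in MRC5, 0.716 in iCAFs and 1.64 with JNKi. It passed the filter there only through iCAFs+JNKi, so its rise followed from that selection.

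Other genes were ranked by how close their log2 differences were to those of DCN, BGN and LUM, the 3 members highest in MRC5, over 4 comparisons (JUN WT and JUN AA against control, iCAFs against MRC5 and iCAFs+JNKi against iCAFs). The measure was the Euclidean distance, over the 5753 genes that averaged 5 FPKM or more in each table. CSDC2, an RNA-binding protein gene, was closest to DCN, at a distance of 0.217 with differences of -0.47, 0.30, -1.54 and 1.74. POSTN, which encodes the matrix protein periostin, and ANO4 followed at 0.604 and 0.773. Closest to BGN were PTGS1, a prostaglandin synthase gene, at 0.246, GABARAPL1 at 0.375 and ST5 at 0.381.

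LUM lay further from its nearest genes. HMOX1, the inducible heme oxygenase gene, was nearest at 1.35, with differences of -1.24, 0.51, -0.88 and 1.44, and KCNF1 and CSRP2 followed at 1.56 and 1.66. Between members, the distances were 2.14 between DCN and LUM, 2.93 between DCN and BGN and 2.95 between BGN and LUM. These distances rest on 6 libraries and on comparisons that share libraries.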

How the data were processed

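RNA-seq was performed on 6 MRC5 libraries, with 1 library per condition. Per the submitters' processing notes and the study's methods, the authors mapped reads to hg19 with HISAT2 2.1.0 at default parameters and deposited FPKM values per gene from StringTie 2.1.1, normalised in 2 separate tables. The annotation, strand setting and read numbers are not given in the sources used here. A single step shared by low values was looked for, and at most 2.86% of the low genes held any 1 ratio between a pair of libraries, so depth could not be read from the values and no count test was used.

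Each table had 25370 rows. For a repeated symbol the higher row was used. Differences of log2(FPKM + 1) were computed within a table in Python 3.11.15 with numpy 2.4.6 and pandas 2.3.3, over genes that averaged 1 FPKM or more, and figures were drawn with matplotlib 3.10.9. The computation was tested on simulated data. As alternatives, the pseudocount was lowered to 0.1, each library was rescaled to sum to 1000000, differences were centred on the median gene, and the filter was dropped or raised to 5 FPKM. A median was taken as moved beyond 0.25 on the log2 scale and a count beyond 1.5 times, limits chosen here.

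The members and gene lists were chosen with earlier results of these data known. Named beside the members were, for each list and comparison, up to 2 genes with the largest rise and 2 with the largest fall past 2-fold, the 3 genes most like each of the 3 members highest in MRC5, and overlapping or neighbouring genes. VIM, TSKU, PODNL1, TLR2, TLR4, PXYLP1, COL14A1, B3GNT7, CHST1, CHST4, CHST5, CHST6 and the cell type markers were named outside this rule, after their values were seen. Positions come from GRCh37 with GENCODE annotation, and promoter windows from RefSeq (GRCh38.p14), matched to GRCh37.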

Additional observations from a re-analysis of the deposited data

Results flagged for a closer look

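LUM differed in opposite directions from the control in the 2 JUN libraries. It was lower in JUN WT, with a log2 difference of -1.88, and higher in JUN AA, with 1.34, so that the effects were -3.22 apart. With 1 library per condition this difference was not tested. JUN mRNA stood at 4543 FPKM with JUN WT and 291 with JUN AA, and the part of the JUN level in the difference cannot be told apart from that of the mutation.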

How the results depend on the processing

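No paired analysis was possible because each condition has 1 library, and for the same reason no library could be left out. The medians of the 5 expressed members kept their direction except in JUN WT against JUN AA, where the median of -0.083 became 0.21 with rescaled FPKM, 0.016 without a filter and -0.43 at a mean of at least 5 FPKM. In JUN WT against control the median of -1.61 became -1.87 with a pseudocount of 0.1 and -0.42 without a filter. In JUN AA against control the median of -1.32 became -1.64 with rescaled FPKM, -0.15 without a filter and -0.48 at a mean of at least 5 FPKM, which leaves 4 members. In iCAFs+JNKi against iCAFs the median of 2.02 became 1.22 without a filter. Without a filter the 4 members at or near 0 enter each median. The count of members at least 2-fold higher in JUN WT than in JUN AA was 0, and it was 1, PODN, with a pseudocount of 0.1 and with rescaled FPKM. The other counts stayed within 1.5 times. Of 75 differences of single members recomputed with the pseudocount, scaling or centring, 19 moved by more than 0.25 and 2 changed sign, both in JUN WT against JUN AA. These were BGN, from -0.083 to 0.21 with rescaled FPKM, and FMOD, from 0.063 to -0.12 with centring. Read depth is unknown, so values under 1 FPKM carry an unknown counting error.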

Other observations

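Proteases that can cut these proteoglycans were measured as well, and 5 of 12 passed the filter in each table. MMP3, stromelysin, was at 3.61 FPKM with empty vector, 43.4 with JUN WT and 3.21 with JUN AA, and at 33.7 FPKM in untreated MRC5, 289.6 in iCAFs and 267.8 after JNKi. MMP3 was thus high both in JUN WT and in iCAFs and stayed high with JNKi, where all 5 expressed proteoglycans were highest in their table. MMP14, a membrane-bound protease, was at 676.5 FPKM with empty vector, 319.5 with JUN WT and 255.7 with JUN AA. BMP1, which trims the propeptides of procollagens and of biglycan, was at 71.7 FPKM in the control and 33.1 FPKM in JUN WT. MMP2 was at 318.7 FPKM with empty vector, 437.0 with JUN WT and 169.0 with JUN AA. ADAMTS5, an aggrecanase, was at 2.73 FPKM in iCAFs and 7.18 FPKM with JNKi.

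Of 9 other matrix proteoglycans, 4 were measured beside the JUN libraries and 5 beside the iCAFs. VCAN, the large hyaluronan-binding proteoglycan, was at 12.4 FPKM in the control and 4.70 FPKM in JUN WT. It was at 29.5 FPKM in iCAFs and 113.5 FPKM with JNKi, and like the 5 expressed members it was more than 2-fold higher there. SRGN was at 2.63 FPKM in the control and 0.425 FPKM in JUN WT, and ESM1 at 0.125 FPKM in MRC5 and 2.31 FPKM in iCAFs. Each passed the filter only through the library where it was high, so its difference followed from that selection. Its other values in the same table were under 1 FPKM, where the reads are unknown.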
